A study of Mus musculus with 4 samples.

Results

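PIWI proteins are the germ-cell branch of the Argonaute family, and they carry piRNAs, small RNAs that direct the cleavage of transposon RNA and the methylation of transposon DNA. The 10 genes described here encode 3 PIWI proteins (Piwil1, Piwil2 and Piwil4) and 7 factors that make piRNAs or assist the PIWI proteins (Mov10l1, Pld6, Asz1, Henmt1, Gtsf1, Mael and Exd1). They were taken by gene symbol from a table of 31600 features, and all 10 were present once. In the mouse testis, long precursor RNAs are bound by the helicase Mov10l1, cut at the mitochondrial surface by Pld6 with the scaffold protein Asz1, loaded into a PIWI protein and methylated at the end by Henmt1. Piwil2 is known from fetal germ cells through to spermatids, Piwil1 from pachytene spermatocytes and round spermatids, and Piwil4 mainly from fetal gonocytes, where it acts in the nucleus.

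Long RNA was sequenced after depletion of ribosomal RNA, in 2 control and 2 differentiation libraries. The cells are labelled as mouse spermatogonial stem cells, from which sperm production is renewed. The labels name the same cell type for all 4 libraries and give the genotype field as WT for control and as Differentiation for the other group. No strain, age, treatment or time is given there, and it is not stated whether replicate libraries are of separate cultures or animals, so p-values measure the spread between these libraries, which may be technical. Values are FPKM (fragments scaled by exon length and by library depth). The length takes in all annotated exons of a gene, used or not, so levels of different genes compare only approximately. Unless another scale is named, a change is a difference in log2(FPKM + 1), a scale that compresses the change of low genes, with the standard error and Benjamini-Hochberg adjusted p of limma over the 23138 features whose mean reached 0.5 FPKM.

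The libraries corresponded to between 17772011 and 20650244 fragments. Spearman's rho over tested features was 0.970 within each group and 0.791 to 0.797 between groups, across features that are not independent replicates. Markers of undifferentiated spermatogonia summed to 152 and 156 FPKM in control and 48.5 and 48.7 FPKM in differentiation. Of the 12, 10 fell and 1, Id4, rose, from 2.95 to 12.4 FPKM as group means. All 8 pachytene spermatocyte markers rose (sums of 31.8 and 33.2 against 772 and 779 FPKM). Markers of early meiotic prophase rose in 8 of 9 genes and fell in 1 (sums of 189 and 192 against 599 and 609 FPKM). Markers of differentiating spermatogonia fell in 6 of 8 (sums of 414 and 404 against 209 and 209 FPKM). Stra8 was the highest of these, at 241 and 233 FPKM in control and 139 and 141 FPKM in differentiation. In control both lists thus had higher sums than the markers of undifferentiated spermatogonia. Of 7 spermatid markers tested 6 rose, at low levels (sums over the 8 in the table of 7.57 and 6.28 against 34.6 and 34.9 FPKM). The highest in differentiation were Crem, Zpbp and Acr, with means of 10.5, 9.85 and 9.42 FPKM. Prm1, Tnp2 and Spaca1 reached 0.951, 1.53 and 1.16 FPKM, Acrv1 was not called and Prm2 was under the filter. Markers of other testis cells were also detected: fibroblast and peritubular markers (9 of 10 fell, sums of 370 to 371 against 121 to 132 FPKM), macrophage markers (7 of 7 tested fell, 58.8 to 61.8 against 14.4 to 14.8 FPKM), Leydig markers (2 of 4 fell and 1 rose, 36.8 to 37.9 against 20.8 to 21.1 FPKM) and Sertoli markers (4 of 7 rose and 2 fell, 104 to 107 against 121 to 131 FPKM). None of the 31600 features in the table was at 0 in all libraries, so being above 0 does not set these markers apart. Of the markers chosen, Tnp1 (spermatid), Insl3 (Leydig) and Rhox5 (Sertoli) were absent from the table. The Leydig markers did not move together, since Star rose while Cyp11a1 fell. Over all features tested, 29.6% were called higher and 27.0% lower. Pgk2, Ccna1 and Spag6 (pachytene) and Acr, Tnp2 and Prm1 (spermatid) reached the mean of 0.5 FPKM only through their differentiation level. Lum, Adgre1, C1qb and Mrc1, which fell, reached it only through control. The direction of these markers is thus partly fixed by the filter. Which cells these RNAs came from was not determined. In bulk RNA a change in the number of cells of a type and a change in RNA per cell cannot be told apart, and the part of these markers in the results below was not tested.

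All 10 genes passed the filter on low values; 9 rose and 1, Piwil4, fell. Over all features tested, 56.6% were called in either direction, 29.6% as higher and 27.0% as lower. The groups did not overlap for any of the 10 genes, against 79.9% of the features tested (40.9% higher and 39.1% lower). The median change of the 10 genes was 0.77 on the log2(FPKM + 1) scale, beside 0.01 over all features tested.

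**Figure D1:**
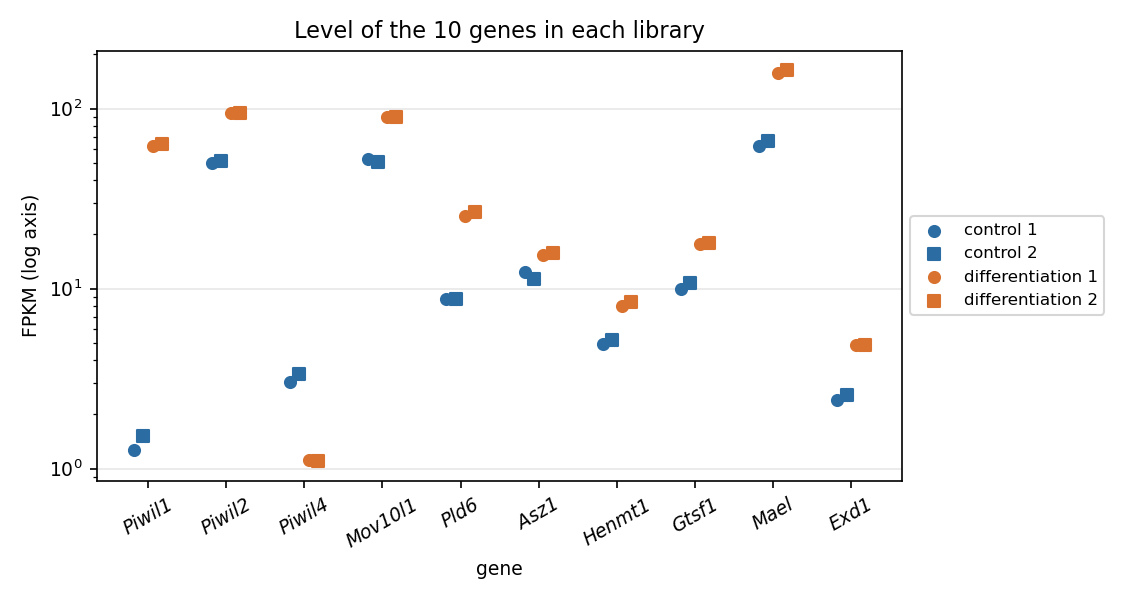
FPKM (log axis) of the 10 genes in each library, control 1 and 2 in blue and differentiation 1 and 2 in orange. Libraries of a group lie close together, 9 genes are higher in differentiation, and Piwil4 is lower.

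GENCODE M21 (GRCm38) places Piwil1 (ENSMUSG00000029423) at 128702524 to 128755474 on chromosome 5 (plus strand, 23 merged exons), Piwil2 (ENSMUSG00000033644) at 70372477 to 70429383 on chromosome 14 (minus strand, 24 merged exons) and Piwil4 (ENSMUSG00000036912) at 14696230 to 14740733 on chromosome 9 (minus strand, 23 merged exons). The processing factors are Mov10l1 (ENSMUSG00000015365) at 88982909 to 89055152 on chromosome 15 (plus strand, 27 merged exons), Pld6 (ENSMUSG00000043648) at 59783897 to 59787645 on chromosome 11 (minus strand, 2 merged exons), Asz1 (ENSMUSG00000010796) at 18050964 to 18109061 on chromosome 6 (minus strand, 12 merged exons) and Henmt1 (ENSMUSG00000045662) at 108939873 to 108960774 on chromosome 3 (plus strand, 10 merged exons). The cofactors are Gtsf1 (ENSMUSG00000022487) at 103402405 to 103430470 on chromosome 15 (minus strand, 13 merged exons), Mael (ENSMUSG00000040629) at 166201201 to 166238747 on chromosome 1 (minus strand, 12 merged exons) and Exd1 (ENSMUSG00000048647) at 119516505 to 119547627 on chromosome 2 (minus strand, 13 merged exons). All 10 are protein-coding, and values per gene do not separate their isoforms.

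Piwil1, the PIWI protein (MIWI) that carries pachytene piRNAs, was at 1.27 and 1.52 FPKM in the control libraries and at 62.1 and 63.4 FPKM in the differentiation libraries. Both control libraries were low, with 108 and 137 fragments, and both differentiation libraries were far above them, with 4809 and 5627 fragments. The ratio of the group means was 44.9. The change was 4.73 on the log2(FPKM + 1) scale (SE 0.06; limma adjusted p = 7.36e-05), and 5.49 (SE 0.12) when fitted with limma-voom to the fragments. Piwil1 moved from a level above that of 27.2% of the tested features in control to one above 98.5% of them in differentiation.

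Piwil2, the PIWI protein (MILI) that amplifies piRNAs and cleaves transposon RNA, was at 49.7 and 51.2 FPKM in control and at 95.0 and 94.4 FPKM in differentiation. It was thus already abundant in control, above 98.0% of the tested features, and it rose 1.88-fold (log2(FPKM + 1) change 0.89, SE 0.03; limma adjusted p = 1.76e-04).

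Piwil4, the nuclear PIWI protein (MIWI2) that guides DNA methylation of transposons, was at 3.02 and 3.34 FPKM in control and at 1.12 and 1.10 FPKM in differentiation. Both differentiation libraries lay below both control libraries, with 107 and 121 fragments against 317 and 371. The control mean was 2.86 times the differentiation mean. The change was -0.98 on the log2(FPKM + 1) scale (SE 0.09; limma adjusted p = 2.03e-03) and -1.51 (SE 0.14) on the fragments. Gm10706, an antisense gene, shares 137 exonic bases with Piwil4. It rested on 46 and 25 control and 8 and 16 differentiation fragments. The use of strand in counting is not known here, so fragments of that stretch cannot be assigned. The ratio of differentiation to control for Gm10706 was 0.356, with an exact 95% counting interval of 0.214 to 0.572 that leaves out the spread between libraries, in the direction of Piwil4. Its log2(FPKM + 1) change was -0.53 and did not pass (limma adjusted p = 0.0798).

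The promoter windows of RefSeq (GRCm38.p6) show how the sequences near the start differ between these genes. Windows reach from 250 bases before the annotated start to 50 after it, and 9 of the 10 genes had at least 1; Piwil2 had no entry. Shown are Piwil1, the gene with the largest rise, Mael and Mov10l1, which like it hold both an E-box and a MYB core, and Piwil4, the gene that fell. Each is printed from 250 bases before the start to 10 after it, 5′ to 3′ on the strand of the gene. Capitals mark matches, on either strand, to the MYB core TAACNG, the motif of A-MYB and its paralogs, and to the E-box CACGTG, bound by MYC-type and related factors.
Piwil1 (chr5:128735996-128736255, plus strand): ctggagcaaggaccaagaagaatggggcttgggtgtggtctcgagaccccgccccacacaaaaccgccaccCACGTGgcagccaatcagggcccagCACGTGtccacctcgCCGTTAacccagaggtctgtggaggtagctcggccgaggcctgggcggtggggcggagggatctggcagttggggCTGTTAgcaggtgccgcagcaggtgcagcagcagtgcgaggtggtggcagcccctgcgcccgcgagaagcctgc
Mael (chr1:166238735-166238994, minus strand): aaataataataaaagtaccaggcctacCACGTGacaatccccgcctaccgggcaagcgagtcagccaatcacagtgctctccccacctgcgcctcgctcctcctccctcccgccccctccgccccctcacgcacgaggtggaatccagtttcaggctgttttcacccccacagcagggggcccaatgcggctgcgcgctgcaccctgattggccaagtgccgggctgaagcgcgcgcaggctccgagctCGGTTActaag
Mov10l1 (chr15:88982744-88983003, plus strand): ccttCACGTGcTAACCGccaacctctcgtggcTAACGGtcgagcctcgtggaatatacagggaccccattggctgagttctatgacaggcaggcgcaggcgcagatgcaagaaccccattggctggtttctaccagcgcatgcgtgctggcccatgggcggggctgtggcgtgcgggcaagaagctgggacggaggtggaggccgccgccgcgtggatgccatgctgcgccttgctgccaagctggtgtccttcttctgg
Piwil4 (chr9:14740663-14740922, minus strand): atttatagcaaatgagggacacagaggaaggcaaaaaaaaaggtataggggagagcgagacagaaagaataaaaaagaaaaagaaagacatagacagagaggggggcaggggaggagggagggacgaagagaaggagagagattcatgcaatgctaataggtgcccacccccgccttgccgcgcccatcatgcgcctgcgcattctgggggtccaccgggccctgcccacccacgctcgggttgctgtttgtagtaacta
In the Piwil1 window the E-box matches begin 179 and 154 bases before the start and the MYB core matches 139 and 64 bases before it. No match overlapped another. The MYB core was present in 3 of the 11 windows of these genes (1 each of Piwil1, Mael and Mov10l1), and in 23.3% of all 32851 promoter windows. The E-box was present in 4 of the 11 windows (the same 3 and 1 of Pld6), and in 7.15% of all windows. An E2F-type motif, GCGGGAA, was in none of the windows of these genes and in 4.60% of all windows. None of the 3 motifs was in either Piwil4 window, of which the upstream one is shown in part, nor in the windows of Asz1, Exd1, Gtsf1 and Henmt1, which rose. Matches are letters in a window and do not show binding.

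**Figure D2:**
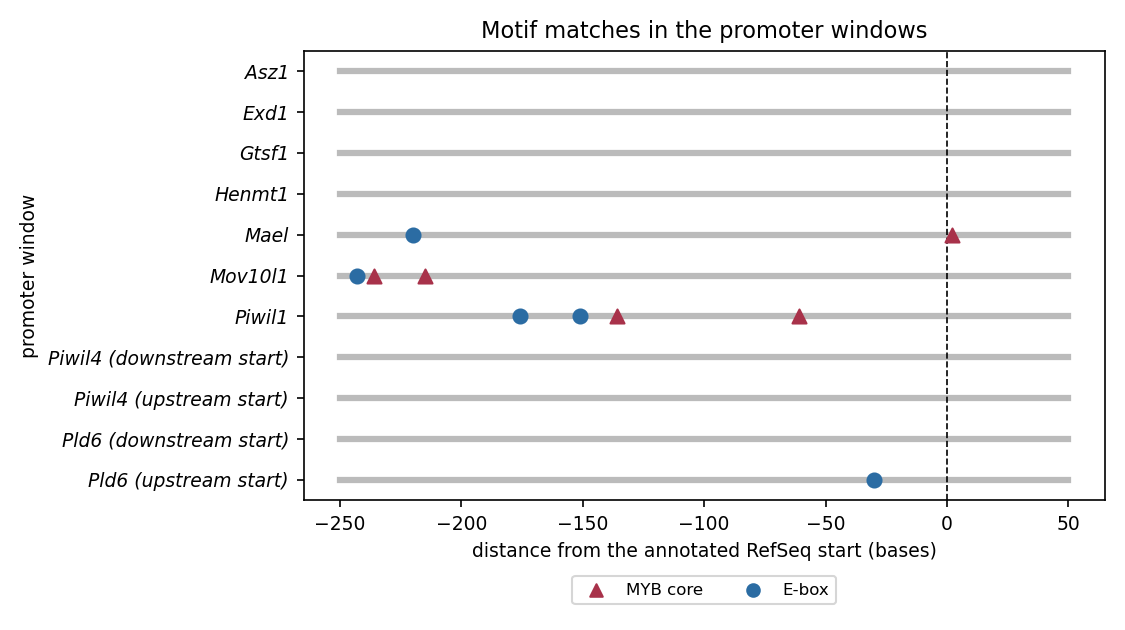
Position of MYB core (triangles) and E-box (circles) matches in the 11 promoter windows of 9 genes, as distance in bases from the RefSeq start (dashed line). Piwil1 holds 2 matches of each kind, Mael 1 of each, Mov10l1 1 E-box and 2 MYB cores, 1 Pld6 window 1 E-box, and the windows of Piwil4, Asz1, Exd1, Gtsf1 and Henmt1 none.

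CpG dinucleotides, the sites of DNA methylation, were also counted in these windows. The ratio of observed to expected CpG was 0.54 for Piwil1, 0.78 for Mael, 0.67 for Mov10l1 and 0.54 for the upstream Piwil4 window, and the median of all windows was 0.38. The highest ratio among the genes was 0.79, for Exd1. The downstream Piwil4 window held 0 CpG.

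The composition of PIWI RNA differed between the libraries of the groups, as did its amount. Summed over Piwil1, Piwil2 and Piwil4, the level was 54.0 and 56.1 FPKM in control and 158 and 159 FPKM in differentiation, a ratio of 2.88. Piwil1 made up 2.36% and 2.71% of this sum in control and 39.2% and 39.9% in differentiation. Piwil2 made up 92.0% and 91.3% in control and 60.1% and 59.4% in differentiation, and so remained the most abundant of the 3 in every library. Piwil4 went from 5.60% and 5.95% to 0.71% and 0.69%. For all 3 shares the differentiation libraries lay outside the range of the control libraries. With 2 libraries against 2 the two-sided exact permutation test over libraries cannot go below p = 0.333, which is the value of each of the 3 shares (adjusted over the 3, also 0.333).

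**Figure D3:**
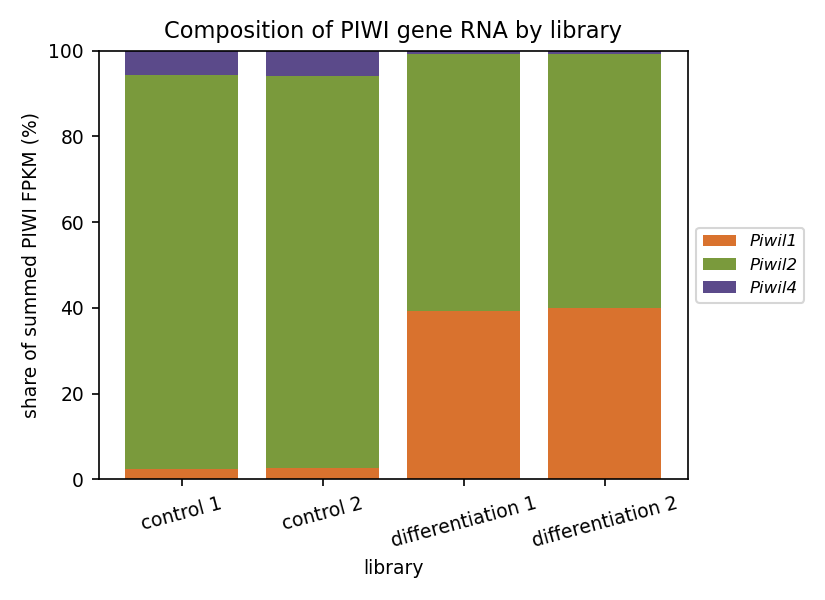
Share (%) of Piwil1, Piwil2 and Piwil4 in their summed FPKM, as stacked bars for each of the 4 libraries. The Piwil1 share is 2.36% and 2.71% in control and 39.2% and 39.9% in differentiation, and Piwil2 holds most of the rest.

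The order of Piwil1 and Piwil4 was opposite in the groups. In control Piwil1 stood below Piwil4: Piwil4 had 2.38 and 2.19 times its FPKM. In differentiation Piwil1 had 55.5 and 57.5 times the FPKM of Piwil4. Piwil2 had 39.0 and 33.6 times the FPKM of Piwil1 in control and 1.53 and 1.49 times in differentiation. The log2 ratio of Piwil1 to Piwil2, taken on FPKM + 1, differed between the groups by 3.84, that of Piwil1 to Piwil4 by 5.72 and that of Piwil2 to Piwil4 by 1.88. The SDs of these log2 ratios within a group were between 0.00035 and 0.076. The 3 pairs each gave an exact two-sided permutation p of 0.333, the smallest this design allows (adjusted p = 0.333).

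Mov10l1, the RNA helicase that binds piRNA precursors, was at 52.7 and 50.4 FPKM in control and at 89.7 and 90.2 FPKM in differentiation. It was high in both groups and rose 1.74-fold (log2(FPKM + 1) change 0.79, SE 0.03; limma adjusted p = 2.76e-04). In control its libraries overlapped those of Piwil2, the only neighbouring pair in the order of levels to do so in either group. Its paralog Mov10, which is expressed in many tissues, went the other way, from 16.7 ± 0.113 FPKM in control (SD, n = 2) to 6.26 ± 0.198 FPKM (SD, n = 2), with a limma adjusted p of 1.94e-04.

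Pld6, the mitochondrial endonuclease that forms piRNA ends, was at 8.80 and 8.76 FPKM in control and at 25.2 and 26.8 FPKM in differentiation. This 2.96-fold rise (log2(FPKM + 1) change 1.46, SE 0.04; limma adjusted p = 1.67e-04) was second to that of Piwil1 among the 10 genes, except that after quantile normalization the Mael change (1.37) was above that of Pld6 (1.33). Asz1, the ankyrin-repeat protein that holds the processing machinery at mitochondria, had the smallest rise, from 12.4 and 11.4 FPKM to 15.3 and 15.8 FPKM. The groups did not overlap, the ratio of means was 1.31, and the change was 0.37 (SE 0.05; limma adjusted p = 6.71e-03). The Asz1 call was lost without differentiation replicate 2 (limma adjusted p = 0.0549) and when a change of at least 1.2-fold was required (limma adjusted p = 0.146).

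Henmt1, the methyltransferase that protects the ends of mature piRNAs, was at 4.96 and 5.18 FPKM in control and at 8.04 and 8.39 FPKM in differentiation. The rise was 1.62-fold (log2(FPKM + 1) change 0.60, SE 0.06; limma adjusted p = 1.92e-03). Gm9857, annotated on the opposite strand, shares 392 exonic bases with Henmt1. It rested on 19 and 10 control and 20 and 38 differentiation fragments, beside 258 and 286 control and 382 and 457 differentiation fragments of Henmt1. The ratio of differentiation to control for Gm9857 was 2.10, in the direction of Henmt1. Its exact 95% counting interval, 1.33 to 3.41, leaves out the spread between libraries. The change of Gm9857 did not pass (limma adjusted p = 0.105). Fragments of the shared stretch cannot be assigned to one of the 2 genes without knowing whether strand was used.

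Of the cofactors, Mael, an HMG-box protein needed for transposon silencing and for the handling of piRNA precursors, had the highest level of the 10 genes in every library. It was at 62.2 and 66.2 FPKM in control and at 157 and 163 FPKM in differentiation, a 2.50-fold rise (log2(FPKM + 1) change 1.31, SE 0.04; limma adjusted p = 1.91e-04). Gtsf1, a small zinc finger protein that assists target cleavage by PIWI proteins, was at 9.98 and 10.7 FPKM in control and at 17.6 and 17.9 FPKM in differentiation (1.72-fold; log2(FPKM + 1) change 0.73, SE 0.05; limma adjusted p = 7.68e-04). Exd1, a partner of the tudor protein Tdrd12 in piRNA biogenesis, was at 2.41 and 2.56 FPKM in control and at 4.86 FPKM in both differentiation libraries (1.96-fold; log2(FPKM + 1) change 0.75, SE 0.07; limma adjusted p = 2.14e-03). It was among the lowest of the 10 in both groups, with 283 to 598 fragments a library.

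**Figure D4:**
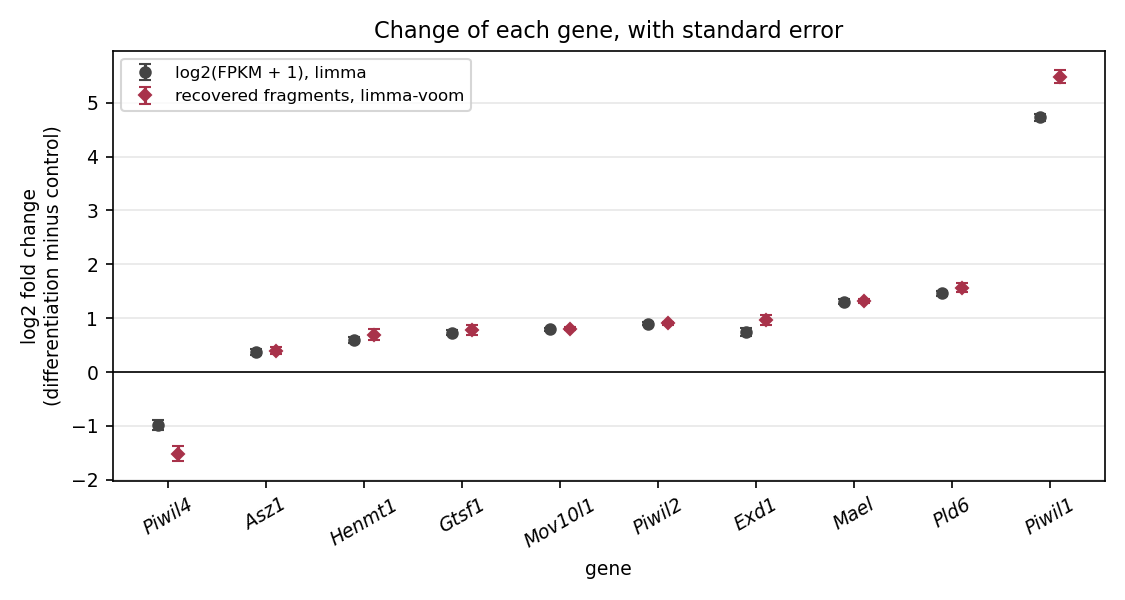
Change of each gene (differentiation minus control, log2) with its standard error, from limma on log2(FPKM + 1) (circles) and from limma-voom on recovered fragments (diamonds). The scales differ most for the low genes: Piwil1 is at 4.73 and 5.49 and Piwil4 at -0.98 and -1.51.

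The libraries of a group agreed closely. Between them, the fragments of a gene differed by 0.0031 to 2.11 Poisson standard errors, and by under 2 in 17 of 20 gene and group pairs. Mael in both groups and Mov10l1 in control were the other 3 pairs.

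Since markers of fibroblasts and macrophages fell in the same libraries, each gene was also set against Ddx4, the germ cell RNA helicase (VASA), within each library. This ratio was chosen after the markers were seen and was not tested, and Ddx4 itself rose from 68.5 ± 1.69 FPKM in control (SD, n = 2) to 125 ± 1.56 FPKM (SD, n = 2), with a limma adjusted p of 2.05e-04. Over all features tested, the ratio to Ddx4 did not overlap between the groups for 87.8%, with 14.1% higher and 73.7% lower in differentiation, so a lack of overlap is the usual case. The ratio of Piwil2 to Ddx4 was 0.713 and 0.761 in control and 0.765 and 0.746 in differentiation, so the groups overlapped. For Mov10l1 it was 0.756 and 0.748 in control and 0.722 and 0.713 in differentiation. The ratio of the group means was 0.95 for Mov10l1, 0.94 for Gtsf1, 1.07 for Exd1 and 0.89 for Henmt1. The ratio of Asz1 to Ddx4 was 0.177 and 0.169 in control and 0.123 and 0.125 in differentiation, so it was lower relative to Ddx4 although its FPKM rose. For Piwil1, Pld6 and Mael the ratio of the group means was 24.5, 1.62 and 1.36. For Piwil4 the control ratio was 5.24 times that in differentiation.

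Other genes of the pathway followed no single direction. Among 18 tudor and germ granule partners, 11 rose and 4 fell, with a median change of 0.73. Over all features tested, 29.6% were called higher and 27.0% lower. Named by the smallest p-values were Tdrd6, Tdrd12, Tdrd1 and Stk31. Tdrd6 rose from 0.326 ± 0.091 FPKM in control to 24.6 ± 0.130 FPKM, and Tdrd12, which acts with Exd1, from 10.6 ± 0.052 FPKM to 31.6 ± 0.297 FPKM (each a mean ± SD, n = 2). Tdrd6 passed the filter on low values only through its differentiation level. Their log2(FPKM + 1) changes were 4.27 and 1.49, those of Tdrd1 and Stk31 1.61 and 1.18. The 4 that fell, named after their values were seen, were Pnldc1, Tex19.1, Fkbp6 and Nanos3. Pnldc1, the exonuclease that trims piRNA ends before Henmt1 acts, fell from 15.4 ± 0.270 FPKM in control (SD, n = 2) to 7.71 ± 0.356 FPKM (SD, n = 2), with a limma adjusted p of 4.86e-04, while Henmt1 rose in the same libraries.

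Of the transcription factor genes linked to piRNA clusters, Mybl1, which encodes A-MYB, rose from 4.74 ± 0.323 FPKM in control (SD, n = 2) to 29.0 ± 0.602 FPKM (SD, n = 2), a log2(FPKM + 1) change of 2.39 (limma adjusted p = 1.15e-04). Tcfl5 rose by 1.47 on that scale. The paralog Mybl2 fell by 0.56, and Btbd18 had a change of -0.05 (limma adjusted p = 0.396). The list had 2 of 4 tested genes higher and 1 lower, and after quantile normalization 2 higher and 2 lower. The list of DNA methylation genes holds maintenance factors as well as genes that act with Piwil4. In it 4 of 5 tested genes fell and 1 rose, beside 27.0% and 29.6% of all features tested. Dnmt1, the maintenance methyltransferase, Morc1, a chromatin protein, and Uhrf1, the Dnmt1 cofactor, had changes of -0.82, -1.36 and -0.50. Tex15, a nuclear partner of Piwil4, rose by 0.22. The fourth that fell was Dnmt3a (limma adjusted p = 0.0499), and it did not pass in the 4 fits that each left out 1 library (limma adjusted p = 0.0805 to 0.171). Nor did it pass without the filter (limma adjusted p = 0.0584) or without the trend in the prior variance (limma adjusted p = 0.0755). The replicate block (limma adjusted p = 0.0908) and a minimum fold change of 1.2 also lost the call. Dnmt3a did pass with pseudocounts of 0.1 and 0.5 and with a filter of 2 FPKM (limma adjusted p = 0.0420 to 0.0496). The call also held with median centring and quantile normalization (limma adjusted p = 0.0182 and 0.0128) and with limma-voom (adjusted p = 1.93e-04). Spocd1, Dnmt3l and Dnmt3c, also of that list, were under the filter, so the count does not cover them.

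In the Argonaute branch of the family and its microRNA machinery 7 of 13 genes rose and 3 fell, with a median change of 0.19. Over all features tested, 29.6% were called higher and 27.0% lower. After quantile normalization 4 of the 13 rose and 4 fell. Ago4 rose from 2.93 ± 0.361 FPKM in control (SD, n = 2) to 10.8 ± 0.441 FPKM (SD, n = 2), Ago2, the slicing Argonaute, rose by 0.54 and Ago1 fell by 0.69 on the log2(FPKM + 1) scale. Drosha, the nuclear microRNA processing enzyme, fell by 0.60. Whether this list differed from the 10 genes was not tested. Among 6 tested paralogs of Mov10l1, Pld6, Exd1 and Gtsf1, 1 rose (Exd2) and 3 fell (Mov10, Pld2 and Pld3).

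**Figure D5:**
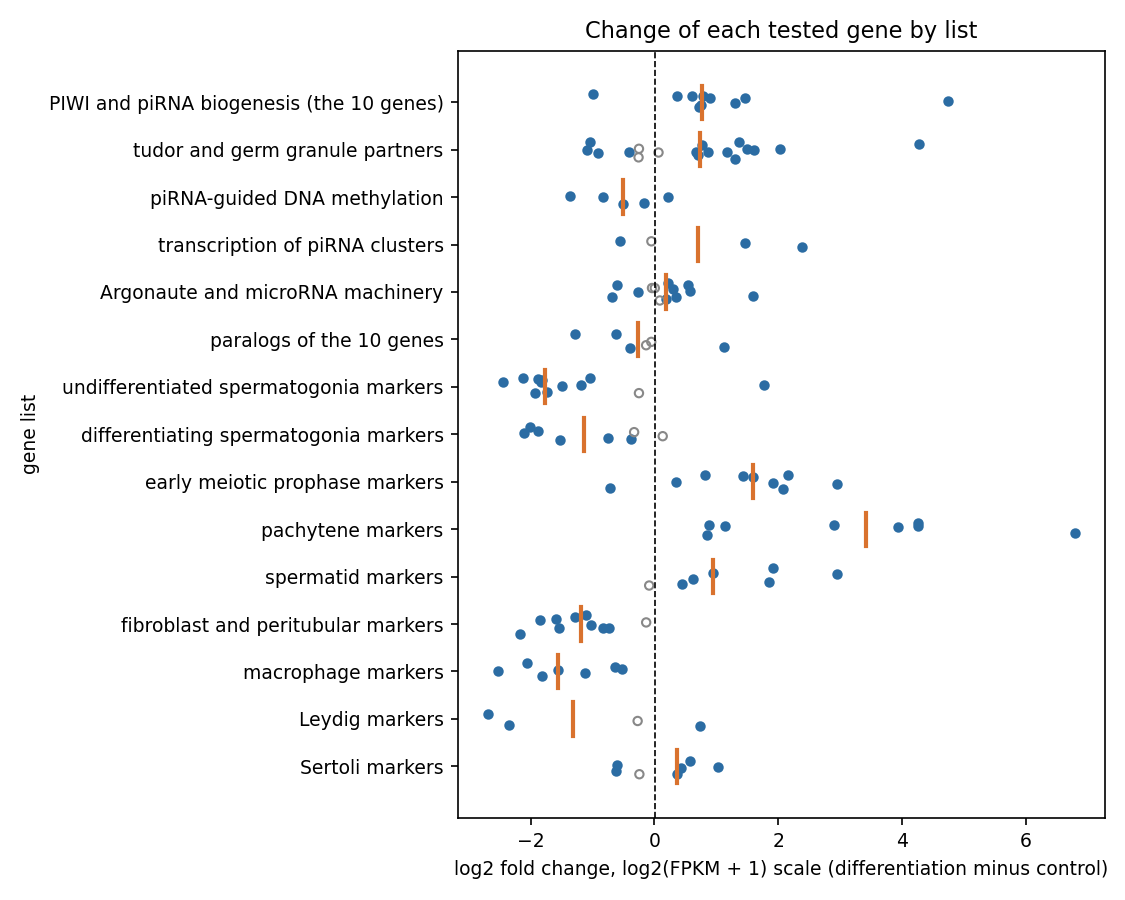
Change of each tested gene (x axis, log2(FPKM + 1) scale, differentiation minus control) by gene list. Filled points passed limma's adjusted p of 0.05, open points did not, orange bars are list medians and the dashed line is the median of all features tested, 0.01; the median of the 10 genes is 0.77 and that of the pachytene markers 3.41.

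The protein-coding genes nearest to Piwil1 in log2(FPKM + 1) over the 4 libraries, by Euclidean distance among 14396 genes, were 1700102P08Rik, Atp8b3 and Fhl4, at distances of 0.40, 0.47 and 0.51. Atp8b3 went from 1.45 to 49.7 FPKM as group means. Nearest to Piwil2 were Canx, Mov10l1 and Gm364 (0.11, 0.14 and 0.24), so another of the 10 genes stood second in that list. Nearest to Piwil4 were Serping1, Kctd15 and Adgrv1 (0.07, 0.09 and 0.10). With 2 groups of 2 libraries, this measure reflects little more than the group means.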

How the data were processed

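Total RNA was depleted of ribosomal RNA per the labels' protocols, and reads were handled with HISAT2 on GRCm38 per the submitters' processing notes; no source used here names the annotation, the counting tool or the use of strand. The deposited table held the authors' FPKM per library. The log2 fold change and p-value that the authors deposited beside it, from an unnamed test, were not used.

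FPKM were tested with limma 3.58.1 (R 4.3.3), two-sided, on log2(FPKM + 1); group was the only term and the prior variance followed the level. The filter was a mean of at least 0.5 FPKM. There were 2 residual degrees of freedom, and the prior added 2.14. Adjusted p under 0.05 was called, over all 23138 features. Fragments were recovered from FPKM and GENCODE M21 exonic length (31536 of 31600 features): 96.2% of values under 300 fragments were whole within 0.05. They were fitted with limma-voom as an alternative. Intervals from fragments cover counting error only.

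On simulated data of 22100 features, only 50 were set to change at each fold. Among those that passed the filter, limma recovered 2.04% of 1.25-fold, 6.12% of 1.5-fold, 32.7% of 2-fold and 72.3% of 4-fold changes. It also called 4 features that had not been changed. In the 4 libraries 56.6% of the features tested were called, a far larger share. The simulated rates therefore do not give the recovery in these libraries. The 10 genes, the 15 lists and the tests were chosen with earlier results of these data known. Named genes are the 10, up to 4 of each pathway list with the smallest p, and the 3 protein-coding genes nearest each PIWI gene; others were named after their values were seen. Stage and cell type markers are given as counts and sums, with some named after their values were seen. Promoters came from RefSeq. Alternatives were the pseudocount, filter, scaling, prior, a replicate block, a minimum fold and leaving out each library. Other steps used matplotlib 3.10.9, scipy 1.17.1, pandas 2.3.3, numpy 2.4.6 and Python 3.11.15.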

Additional observations from a re-analysis of the deposited data

How the results depend on the processing

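Each of the 10 genes was refitted under 14 alternatives, and 138 of the 140 results kept the direction and the call. The other 2 were both for Asz1, without differentiation replicate 2 (change 0.34, limma adjusted p = 0.0549) and with a minimum fold change of 1.2 (change 0.37, limma adjusted p = 0.146), and leaving out 1 library in turn gave Asz1 changes of 0.31 to 0.42. Requiring that minimum also lowered the count over all features to 4409 higher and 3572 lower, from 6848 and 6246. Leaving out 1 library gave 5094 to 5583 higher and 4344 to 4634 lower features, and 8 to 9 of the 10 genes higher with 1 lower. A pseudocount of 1 holds down the change of low genes: over the settings that kept all libraries, Piwil1 ranged from 4.66 to 5.49 and Piwil4 from -1.51 to -0.98. With a pseudocount of 0.1 the log2 ratio of Piwil1 to Piwil2 differed between groups by 4.49.

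The libraries of the 2 groups share the numbers 1 and 2, but nothing says that a number marks a shared culture or animal. The deviations of same-numbered libraries had a correlation of -0.00041 across features. With the replicate block 9 of the 10 genes rose and 1 fell, and 6510 features were called higher and 5788 lower. At 107 to 137 fragments a library, Piwil1 in control and Piwil4 in differentiation rest on the fewest fragments of the 10 genes.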

Other observations

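A transcript of unconfirmed coding status, 4930553I04Rik, lies on the opposite strand within the annotated span of Piwil1, beside its RefSeq start. It was noticed after the Piwil1 values were seen. GENCODE M21 places it on GRCm38 chromosome 5 at 128735360 to 128736029 on the minus strand, with its start 217 bases upstream of the RefSeq start of Piwil1 at 128736246, and it shares no exonic base with Piwil1. It rested on 1 and 2 control and 19 and 20 differentiation fragments. The ratio of differentiation to control was 13.7, from 3 control and 39 differentiation fragments. It passed the filter on low values only through the differentiation libraries, so no test is given. The use of strand in counting is not known, so fragments of unspliced Piwil1 RNA cannot be told apart from this transcript. Henmt1 and Exd1 have head-to-head neighbours too. Gm9857 starts 112 bases from Henmt1 on the other strand and overlaps its exons; it went from 19 and 10 to 20 and 38 fragments, in the direction of Henmt1. Chp1 starts 70 bases from Exd1 on the other strand and was at 19.2 and 19.0 FPKM in control and at 17.4 and 17.0 FPKM in differentiation, while Exd1 rose.

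The annotated span of Piwil1 in GENCODE M21 runs from 128702524 to 128755474 on chromosome 5 and so begins upstream of the RefSeq start. How many fragments fell on the upstream exons cannot be read from a value per gene, so the start in use was not tested.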
